A study of Drosophila melanogaster with 7 samples.

Results

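In the fat body of Drosophila larvae that carried activated Ras (RasV12) in other tissues, 152 of 14804 listed genes were higher in each of the 3 RasV12 libraries than in each of the 3 control libraries and met a minimum of level and of difference. They were chosen from the measured values. FPKM, which relate the fragments of a gene to the length of its exons and to library size, were divided by each library's 75th percentile, taken over the genes detected in any of the 6 libraries, and multiplied by the mean percentile. The result is called scaled FPKM here. A gene was kept when its mean FPKM was at least 1, its lowest RasV12 value lay above its highest control value and its mean log2(scaled FPKM + 1) was more than 1 higher in RasV12. Names starting with IM, PGRP, Att, Dro, Tot, Tep, nim, Cyp or Mst were then left out, which removed 17 of 169 genes. The 169 genes were 2.23% of the 7575 with a mean FPKM of at least 1, and 581 (7.67%) had all RasV12 values above all control values. The 152 members were then sorted by function, after they were known, into 13 small groups with 80 genes and a remainder of 72.

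The controls came from Bx-GAL4 crossed to w1118, and the RasV12 larvae from Bx-GAL4 crossed to UAS-RasV12, so that all larvae carried the same driver and received no further treatment. The comparison asks how the fat body responds at the RNA level to overgrowth elsewhere in the larva. The driver, a GAL4 insertion at Beadex, is active in wing discs and salivary glands, so that the tissue measured was not the tissue in which the oncogene was meant to be expressed. Each replicate was fat body pooled from 40 wandering larvae, with gonads excluded, and p-values measure only the spread between such pools. Control replicate 3 was sequenced in 2 runs, of which run 3A was used. In such a bulk sample a larger number of cells of a type and more RNA per cell cannot be told apart.

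The larval fat body combines the storage and secretory roles of liver and adipose tissue, and it is the main source of antimicrobial peptides that are released into the hemolymph through the Toll and imd pathways. Ras acts downstream of receptor tyrosine kinases such as Egfr and signals through the MAP kinase cascade to Ets transcription factors, which switch on target genes that include feedback inhibitors of the receptor itself. The fat body is bathed in hemolymph, where it meets secreted signals, proteases and circulating hemocytes.

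The libraries rested on 4649422 to 7328089 fragments, apart from control 3 with 2910838, as estimated from the deposited confidence bounds. All 12 fat body markers were above 0 in every library. Their summed scaled FPKM was 121700, 119300 and 178500 in control libraries and 104900, 69870 and 121800 in RasV12. Of these 12 markers, 3 had all RasV12 values below all control values and 0 had all above. Their median log2 difference was -0.44. RasV12 2 had the lowest of these sums and also stood apart by its 11052 genes above 0, against 8283 to 10233 in the other 5 libraries. Summed larval midgut markers were at 847 and 91.7 in controls 1 and 2 and at 3.18 to 5.12 in the other 4 libraries. Ras85D, the gene from which the transgene was made, was at a scaled FPKM of 36.2, 32.3 and 39.3 in control libraries and 45.5, 47.1 and 31.6 in RasV12, so that the groups overlapped.

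The rule selected low and middling genes rather than abundant ones. Separation in the other direction, with all RasV12 values below all control values, was found in 536 of the genes tested (7.08%). Members had a RasV12 mean of 1.71 to 603 scaled FPKM with a median of 6.16, against a median of 12.3 over all genes tested. Their log2 difference ran from 1.00 to 5.23 with a median of 1.45, and the median of all genes tested was 0.00. This scale understates differences of low genes. Fragments were too few for a ratio in most members, since at least 1 control rested on 3 or fewer. No control was on more than 3 fragments in 64 members, of which 29 were listed at 0 in every control. In the 55 members with more than 3 fragments in every control the RasV12 mean was 2.02 to 15.9 times the control mean, with a median of 3.34.

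**Figure D1:**
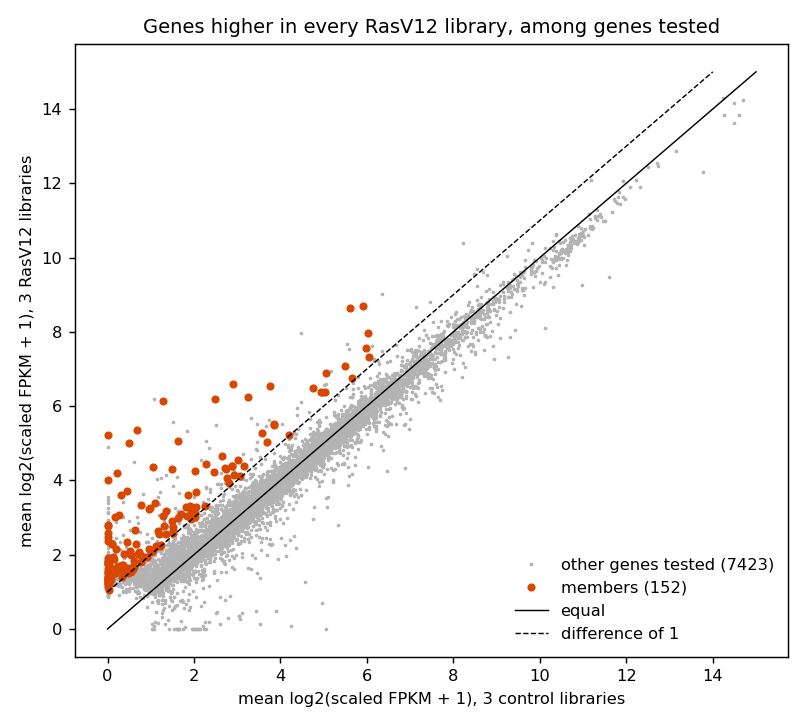
Mean log2(scaled FPKM + 1) of 7575 genes in the 3 RasV12 libraries (vertical axis) against the 3 control libraries (horizontal axis), with 152 members as large points, equality as a solid line and a difference of 1 as a dashed line. Members lie above the dashed line and mostly at low control levels, and other genes above it overlapped between the groups or had a name that was left out.

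The thresholds cut through a continuum. CG1888, with a log2 difference of 1.00, was the member nearest to the difference threshold, and CG6662 at 0.99 was the nearest gene outside. CG5280 entered with a mean FPKM of 1.00, while CG33458 with 0.99 stayed out. The separation of the groups was narrowest for bcn92, a small mitochondrial protein of the LYR family, which was at 0, 0 and 28.51 in controls and at 37.2, 31.6 and 28.54 in RasV12. The second run of control 3 gave 34.4 on 13 fragments for bcn92, whose locus overlaps the more abundant Pgd by 120 bases. In Gal, which encodes a beta-galactosidase, the highest control value of 3.07 lay above the lowest RasV12 value of 3.06, and it was left out in spite of a log2 difference of 1.72. In 18 members the lowest RasV12 value was under 1.2 times the highest control value.

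Most members were raised unevenly among the 3 RasV12 libraries. In 82 of 152 members (53.9%) RasV12 2 was the highest library, against 27.8% of the other 7423 genes tested, while RasV12 1 was the highest for 42 members and RasV12 3 for 28. The highest RasV12 value was under 2 times the lowest in 46 members (30.3%), against 77.5% of the other genes. It was at least 10 times the lowest in 38 members (25%), 30 of which peaked in RasV12 2, against 1.58% of the other genes. These shares compare genes of unlike depth. Every control was on more than 3 fragments in 36.2% of members and in 89.9% of the other genes. A low gene can also pass the minimum of mean FPKM through 1 high library, so the rule itself can select uneven genes. The lowest RasV12 value rested on at most 3 fragments in 45 members. Only 26 members were both even to within 2 times and on more than 3 fragments in every control. The number of members changed with the libraries used: it was 305 without RasV12 1, 125 without RasV12 2, 342 without RasV12 3 and 232 without control 3, and 126, 98, 136 and 144 of the 152 genes were still among them.

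**Figure D2:**
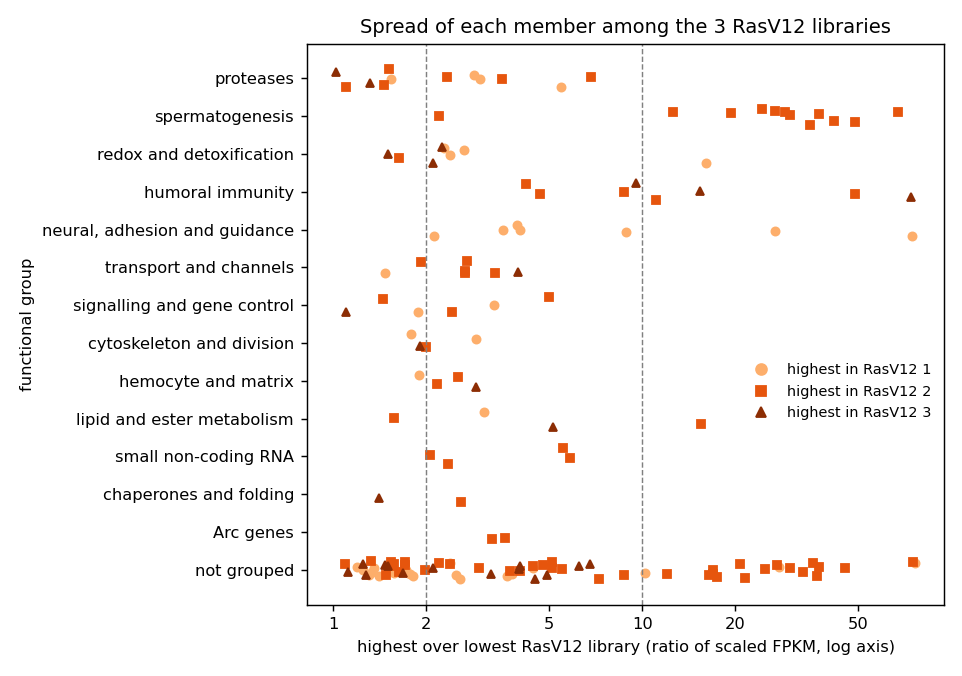
Ratio of the highest to the lowest RasV12 library (horizontal log axis, scaled FPKM) for each of the 152 members, by functional group, with symbols for the library that was highest and dashed lines at 2 and 10. Of 12 sperm development members 11 lie to the right of 10 and all peaked in RasV12 2, neural members peaked in RasV12 1, and all 12 proteases lie to the left of 10.

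Run 3B, a second and shallower sequencing of control 3 with 855836 fragments, was not used by the rule but comes from a sample that was. The lowest RasV12 value lay above run 3B in 126 of 152 members (82.9%), against 30.9% of 7553 genes tested that have a value in this run. These shares come from genes of unlike level, since the median in control 3A was 0.66 for members and 11.55 for all genes tested. A low gene can be at or near 0 in so shallow a run for lack of fragments. The lowest RasV12 value did not lie above run 3B in bcn92, Timp, CDase, spir, CG7777, CG12896, CecA2 and CG16836, among others. Their run 3B values rested on 1 to 13 fragments. Cufflinks also gave bounds for each value. The lower bound of every RasV12 library lay above the upper bound of every control in 28 members, and in 0.647% of the genes tested. A control listed at 0 had an upper bound of 0. Genes at 0 in all controls were therefore counted once all RasV12 lower bounds exceeded 0. They include CG17322, TM4SF, CG14100, CG8478 and CG30098, the last with a lowest RasV12 lower bound of 0.12. CG14100 was at 5.92 in run 3B on 5 fragments, above its lowest RasV12 value of 3.80. limma, which tests each gene across the 6 libraries, called 6 members at an adjusted p under 0.05 among 8 genes called in either direction (0.106% of those tested) and 6 called higher in RasV12 (0.0792%), and 124 members had an unadjusted p under 0.05, as did 401 genes higher in RasV12 in all (5.29%). The 6 called members were CG13335, snoRNA:Psi28S-3571, CG14715, CG17322, CG15152 and CG12224. Of these, the snoRNA rested on 1, 3 and 1 fragments in RasV12, and both it and CG17322 were listed at 0 in all controls. As the rule used the same contrast, the counts from limma and from the bounds describe the members and add no support.

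Members with separated bounds came from several functions. Where controls were above 0, the gap between the bounds was widest for the transporter gene CG6293, described below, and next for CG13335. CG13335 (2R, 9458889 to 9461734 in the BDGP5 build of the files), which has no named function, was at 4.27, 4.03 and 5.53 scaled FPKM in controls and 70.3, 60.3 and 88.7 in RasV12. All RasV12 values were more than 10 times the highest control, and the means of 4.61 ± 0.81 (SD, n = 3) and 73.1 ± 14.4 (SD, n = 3) stood in a ratio of 15.9. CG14715 (3R, 7499941 to 7500654), an FKBP-type peptidyl-prolyl isomerase of the kind that helps proteins fold, was at 10.8, 14.04 and 13.2 in controls and 95.4, 75.8 and 107 in RasV12. Its groups were tight and its means differed by a factor of 7.32. CG15152 (2L, 18114547 to 18115220) was at 2.81, 3.85 and 2.68 in controls and at 15.4, 20.3 and 18.9 in RasV12, with 3 to 13 fragments behind each control value. CG4398, called jtb in newer annotation, had 28.09, 18.5 and 33.3 in controls and 98.6, 98.0 and 70.3 in RasV12. The spread within RasV12 was under 2 times in all 4 genes.

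**Figure D3:**
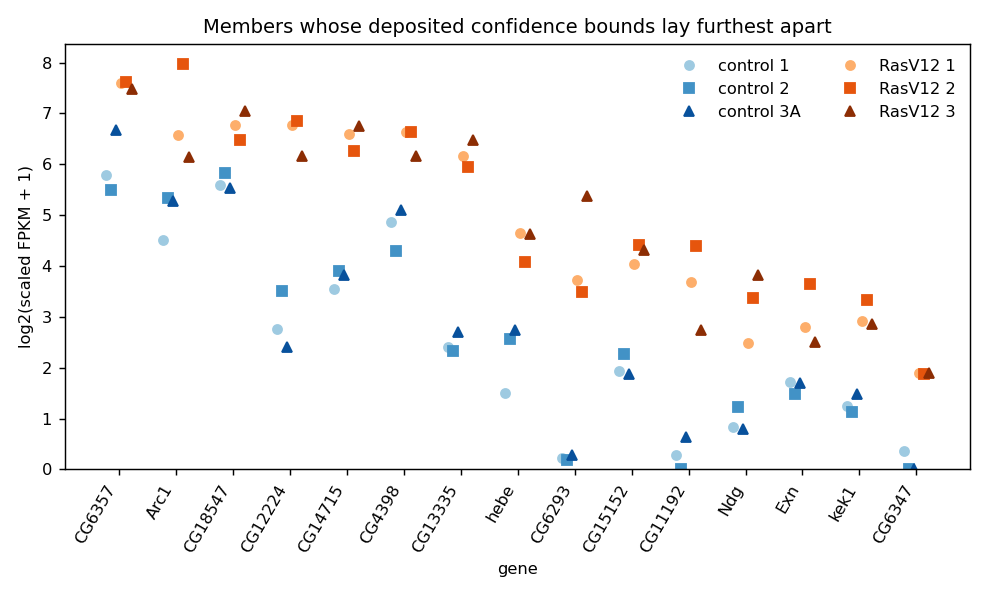
log2(scaled FPKM + 1) of the 15 members whose deposited bounds lay furthest apart as a ratio (horizontal axis, ordered by RasV12 mean), which leaves out members listed at 0 in all controls such as CG17322, with one symbol per library, blue for controls and orange to brown for RasV12. All 3 RasV12 libraries lie above all 3 controls for each gene, with CG6357 the highest and CG6347 the lowest in RasV12.

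Signalling genes included a feedback inhibitor of the Egfr and a regulator of Ets factors. kek1 (2L, 12818930 to 12822787) encodes a transmembrane protein that binds and inhibits the Egfr and is itself a target of the pathway. It was at a scaled FPKM of 1.36, 1.2 and 1.78 in control libraries and 6.61, 9.13 and 6.30 in RasV12, with 15 to 31 fragments per control. Its means of 1.45 ± 0.30 (SD, n = 3) and 7.35 ± 1.55 (SD, n = 3) differed by a factor of 5.08. edl, whose product modulates the Ets factors Pointed and Yan, was at 3.89, 2.56 and 1.62 in controls and at 7.00, 7.07 and 7.71 in RasV12. It was the more even of the 2 genes in RasV12 and the less even in controls.

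The rest of the pathway did not follow them as a whole. Of 21 tested genes in a list of Egfr and Ras pathway components, targets and feedback regulators, 4 had all RasV12 libraries above all controls and 0 had all below, and the median log2 difference of the list was 0.18. This and the list counts that follow stand against 7.67% of all genes tested above and 7.08% below. The lists were chosen with earlier results of these data known, so the counts are descriptions only. Members in a list lie above by the rule, as kek1 and edl do here. The other 2 separated genes were Rapgap1, a GTPase-activating protein, and pnt, which encodes the Ets activator Pointed. Rapgap1 was at 2.39, 2.57 and 2.82 in controls and 5.38, 7.23 and 4.68 in RasV12, with a log2 difference of 0.90. pnt was at 9.19, 9.18 and 9.41 in controls and 12.4, 10.9 and 12.2 in RasV12. The feedback inhibitor sty was at 21.6, 19.0 and 21.8 against 26.8, 25.1 and 20.6, and the phosphatase gene Mkp3 at 7.45, 5.23 and 4.99 against 8.16, 4.67 and 7.76. Both overlapped between the groups.

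Further members in signalling and gene control included Exn, cyc and HLHmbeta. Exn, the fly ephexin and a guanine nucleotide exchange factor, was at 2.29, 1.79 and 2.26 in controls and 5.97, 11.4 and 4.71 in RasV12. cyc, the partner of Clock in the circadian oscillator, was at 5.93, 4.56 and 7.25 against 21.03, 16.3 and 11.2. Exn was highest in RasV12 2 and cyc in RasV12 1, and both rested on at least 25 fragments in each control. HLHmbeta, a Notch target of the Enhancer of split complex, reached only 2.92, 1.48 and 0.89 in RasV12.

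Genes of the cytoskeleton made a group of 4, with RasV12 means of 2.62 to 16.9. Myo61F, a class I myosin, had values of 5.48, 8.71 and 8.52 in controls and 12.5, 14.2 and 23.9 in RasV12. spir, which nucleates actin filaments, was at 1.54, 1.42 and 2.56 against 9.18, 8.81 and 3.17, so that RasV12 3 stood close to the controls. alphaTub85E and the kinetochore gene Nnf1a were lower, with RasV12 values between 1.72 and 3.87. Of the actin and myosin genes in a list 31 were tested, 4 had all RasV12 libraries above, and the median log2 difference was 0.15.

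Members with a role in the extracellular matrix and in hemocytes were Ndg, Pxn, Timp and eater. Ndg (2R, 6201423 to 6209405), the basement membrane linker nidogen, was at 0.77, 1.34 and 0.73 in controls and at 4.57, 9.30 and 13.2 in RasV12. It had the widest ratio of means among the 4, 9.50, and its bounds did not meet. Pxn, the matrix peroxidase peroxidasin, was at 4.72, 6.09 and 9.57 in controls and 11.3, 24.4 and 16.8 in RasV12. Timp, the inhibitor of matrix metalloproteinases, was at 3.55, 1.65 and 4.75 against 11.7, 8.94 and 6.17. The lowest RasV12 value was 1.18 times the highest control for Pxn and 1.30 times for Timp. Run 3B of control 3 gave 6.82 for Timp on 2 fragments, above its lowest RasV12 value.

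The major basement membrane components were not members. Among 16 tested genes of a basement membrane and matrix remodelling list, 5 had all RasV12 libraries above and 2 had all below. trol, the heparan sulphate proteoglycan perlecan, was at 455, 393 and 338 in controls and at 237, 267 and 306 in RasV12, the opposite direction to Ndg. vkg, a collagen IV chain, was at 239, 216 and 109 in controls and at 87.7, 103 and 159 in RasV12, and the groups overlapped. The metalloproteinase gene Mmp2 was at 10.6, 22.3 and 1.17 in RasV12 against 2.69, 0.60 and 1.02 in controls, so RasV12 3 lay within the control range. eater, a phagocytic receptor of hemocytes, was at 0.76, 1.39 and 2.65 in controls and 4.86, 9.95 and 3.93 in RasV12. Of 10 tested hemocyte markers 4 had all RasV12 libraries above, with a median log2 difference of 1.08 over the 10, while the summed level of the 15 markers, which the most abundant ones dominate, was 867 to 1020 in controls and 870 to 1041 in RasV12. The hemocyte gene Hml was listed at 0 in all controls and in RasV12 1 and was at 13.9 and 10.98 in RasV12 2 and 3. Whether hemocytes in the dissected tissue had a part in the level of these 4 members was not tested.

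Proteases were one of the largest functional groups and one of the most even. Of 12 members, 6 had separated bounds and 6 were even to within 2 times among the RasV12 libraries. The 6 with separated bounds include CG30098, which was listed at 0 in all controls. The cathepsin L-like cysteine proteases CG6347 and CG6357 are neighbours on 2R (9723926 to 9729248). CG6357 was the most abundant protease among the members, with 54.0, 43.9 and 101 scaled FPKM in controls and 194, 194 and 177 in RasV12. Its neighbour CG6347, named CtsL2 in newer annotation, was at 0.28, 0 and 0 in controls and at 2.71, 2.67 and 2.72 in RasV12. These neighbours differed widely in level and both were nearly constant across the RasV12 libraries.

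The 7 members of the trypsin-like serine protease family had RasV12 means of 2.33 to 161 scaled FPKM. CG8586 was the highest of them, at 41.9, 64 and 101 in controls and 130.5, 191 and 163 in RasV12, a ratio of means of 2.34. CG11192 was nearly absent in controls, with 0.22, 0 and 0.55 on at most 1 fragment each, and was at 11.9, 20.04 and 5.71 in RasV12. Both kept the groups apart, the former at a high level in all 6 libraries. The 3 metalloproteases were Ance-5, a relative of angiotensin-converting enzyme, the carboxypeptidase CG8539 and the neprilysin-like CG8358. Ance-5 was at 7.98, 10.6 and 5.92 in controls and 26.2, 17.6 and 17.0 in RasV12.

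Redox and detoxification genes contained 2 clusters of neighbours. The aldo-keto reductase genes CG18547 and CG12224 lie next to each other on 3R (7804296 to 7807743). CG12224 was at 5.77, 10.4 and 4.31 in controls and at 109, 114 and 70.3 in RasV12, with a ratio of means of 14.4. CG18547 was already at 46.9, 55.9 and 45.03 in controls and was at 109, 87.7 and 132 in RasV12, a ratio of 2.22. Both genes reached about the same level in RasV12 and differed mainly in controls. CG17322, named Ugt36E1 in newer annotation and encoding a UDP-glycosyltransferase, was listed at 0 in all controls and was at 12.7, 11.2 and 23.5 in RasV12 on 102 to 291 fragments.

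A cluster of peroxiredoxins, enzymes that reduce peroxides, lay on 2R (6306223 to 6315418). Prx2540-1 was at 23.2, 22.3 and 48.9 in controls and 146, 61.1 and 62.1 in RasV12. Prx2540-2 was at 20.5, 29.0 and 52.9 against 156, 58.9 and 62.2, and reads cannot be assigned with certainty between these near-identical copies. CG12896, another peroxiredoxin gene in the cluster, was at 7.65, 10.9 and 19.99 against 51.7, 22.7 and 26.6. In the 3 genes RasV12 1 stood far above the other libraries, and the lowest RasV12 value was only 1.25, 1.11 and 1.14 times control 3. The remaining redox members were CG9363, named GstZ2 in newer annotation and of the glutathione S-transferase family, at 6.45, 0.40 and 0.57 in RasV12, and CG7675 at 2.73, 2.89 and 6.17. Without RasV12 1, 5 of the 8 redox members still met the rule. Over a list of 14 tested peroxiredoxins, thioredoxins and superoxide dismutases the median log2 difference was -0.03. In this list 4 genes had all RasV12 libraries above, the members Prx2540-1, Prx2540-2, TrxT and Pxn, and 1 had all below. TrxT and Pxn are described with the sperm development and matrix groups.

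Among transporters and channels CG6293 had the largest difference. It encodes a member of the nucleobase and ascorbate transporter family and was at 0.16, 0.14 and 0.21 in controls, on 1 or 2 fragments each, and at 12.2, 10.2 and 40.3 in RasV12 on 119 to 600 fragments. The gene named dmGlut in newer annotation, related to glutamate transporters, was at 3.77, 6.53 and 7.26 in controls and 16.5, 32.5 and 12.2 in RasV12. hoe1, a relative of the mammalian pink-eyed dilution protein, was at 0.92, 3.72 and 4.30 against 6.40, 17.3 and 12.7. The aquaporin gene CG7777, named Prip in newer annotation, was at 3.89, 3.55 and 6.57 against 20.3, 29.8 and 8.94. Of the 7 genes in this group 5 were highest in RasV12 2, among them nAcRbeta-21C, a subunit of the nicotinic acetylcholine receptor, at 18.2, 33.4 and 12.5 in RasV12. Among 15 tested sugar and amino acid transporters 2 had all RasV12 libraries above and 3 had all below.

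Lipid and ester metabolism was represented by CDase, CG11425, CG4757 and Yp2. CDase, a ceramidase that releases sphingosine from ceramide, was at 2.35, 1.88 and 4.40 in controls and 15.9, 8.50 and 5.17 in RasV12. CG11425, of the lipid phosphate phosphatase family, was at 11.7, 18.1 and 24.9 against 39.4, 43.4 and 27.6. In both the lowest RasV12 library was close to control 3, at 1.18 and 1.11 times its value. Yp2, a yolk protein gene that is known from the fat body of adult females, was at 0.47, 2.07 and 1.505 against 2.51, 3.89 and 12.9. In a list of sphingolipid and lipid droplet genes CDase was the 1 of 17 tested with all RasV12 libraries above, 3 had all below and the median log2 difference was -0.25.

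Humoral immune genes that remained after the names were left out included the highest levels of all members. They numbered 8, with RasV12 means of 11.3 to 603 scaled FPKM, and 5 peaked in RasV12 2 and 3 in RasV12 3. A cluster on 2R (14276600 to 14278114) contained CG16836, CG15065 and CG15068, named BomT2, BomS5 and BomS6 in newer annotation, which encode short Toll-induced peptides of the Bomanin family. CG15068 was at 68.2, 44.5 and 36.0 in controls, on 10, 8 and 2 fragments, and at 555, 723 and 155 in RasV12. CG16836 was at 6.84, 7.05 and 12.9 in controls, on 4, 5 and 3 fragments, and at 124, 192 and 17.3 in RasV12. CG15065 was listed at 0 in controls 1 and 3, was at 3.10 on 1 fragment in control 2, and had 98.6, 162 and 3.32 in RasV12. All 3 were lowest in RasV12 3, where CG15065 rested on 1 fragment.

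Antimicrobial peptide genes had the opposite order among the RasV12 libraries. Mtk, the antifungal peptide metchnikowin, was at 50.2, 39.5 and 104 in controls and at 418, 132 and 1260 in RasV12. Dpt, the imd target diptericin, was at 70.9, 47.0 and 80.8 in controls and 147, 83.4 and 1285 in RasV12, so that RasV12 2 hardly left the control range. CecA2, a cecropin, was at 0, 1.87 and 0 against 23.8, 3.73 and 275. All 3 peaked in RasV12 3 and were lowest in RasV12 2. CG33470, named BaraA1 in newer annotation and the precursor of Toll-regulated antifungal peptides, was at 34.03, 46.3 and 54.6 against 134, 277 and 65.8 and peaked with the Bomanins in RasV12 2. In 0 of the 8 genes did the bounds of the groups lie apart.

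Arc1 and its neighbour CG10102 (2R, 10245428 to 10249506) ran in parallel. Arc1 encodes a Gag-like protein that forms capsids around its own mRNA, and CG10102 is listed as an Arc pseudogene in newer annotation. Arc1 was at 21.9, 39.5 and 37.9 in controls and 94.8, 249 and 69.3 in RasV12. CG10102 was at 6.87, 13.6 and 13.6 in controls and 29.8, 76.4 and 23.5 in RasV12. Both were highest in RasV12 2 and lowest in control 1, and reads shared between such related copies cannot be told apart.

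**Figure D4:**
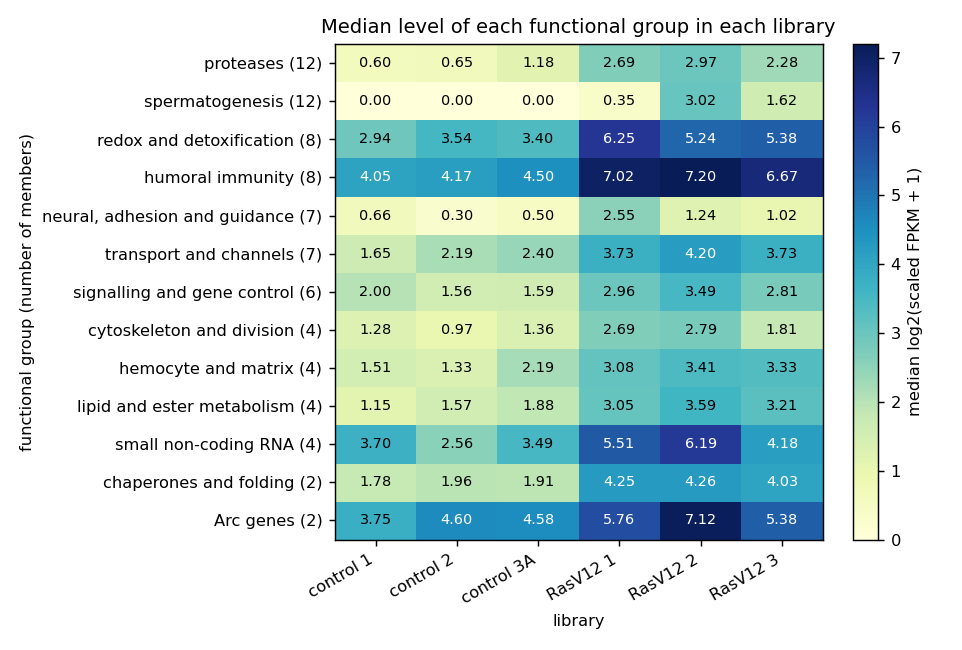
Median log2(scaled FPKM + 1) of the members of each functional group (rows, with the number of members) in each of the 6 libraries (columns), darker for higher medians. Humoral immunity genes had the highest median in each RasV12 library, between 6.67 and 7.20, and sperm development genes had a median of 0 in each control and of 0.35, 3.02 and 1.62 in RasV12 1, 2 and 3.

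Genes of sperm development made a group as large as the proteases, and nearly all of them depended on 1 library. All 12 peaked in RasV12 2, and 11 of them had no control on more than 3 fragments and at most 3 fragments in RasV12 1. ocn, a testis protein, was listed at 0 in all controls and was at 0.49, 24.0 and 3.59 in RasV12 on 1, 90 and 11 fragments. The testis cytochrome c gene Cyt-c-d was at 0 in controls and at 0.30, 7.34 and 2.63 in RasV12. TrxT, a testis thioredoxin, was at 0 in controls and at 0.22, 6.45 and 1.02 in RasV12. The others were w-cup and c-cup, CG6372 and CG4439 (sperm leucyl aminopeptidases), CG7046 (the chromatin protein tHMG2), robl62A, CG5048, Hsp60C and CG10630. CG10630, named blanks and needed for spermatid development, was the exception, with 1.93, 3.65 and 3.07 in controls and 5.45, 11.9 and 7.39 in RasV12.

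Only 1 of these 12 genes met the rule without RasV12 2, while 12 did without RasV12 1 and 11 without RasV12 3. Testis markers outside the members moved with them. The 25 such markers summed to a scaled FPKM of 14.4, 17.3 and 11.9 in control libraries and 16.3, 96.1 and 36.6 in RasV12, and 21 were listed at 0 in RasV12 1 but 0 in RasV12 2. Among the defining markers, the testis tubulin gene betaTub85D was at 0, 0.08 and 0 in controls and 0, 7.97 and 3.49 in RasV12, and RasV12 1 was at 0 like 2 of the controls. Gonads were excluded at dissection according to the labels. The part of gonad tissue in the level of this group was not tested.

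**Figure D5:**
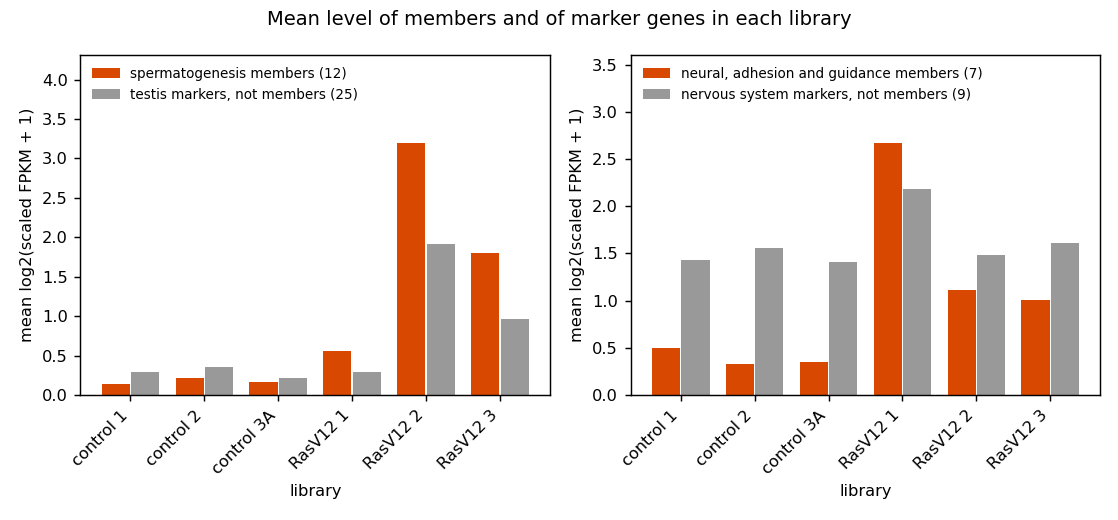
Mean log2(scaled FPKM + 1) in each library of 12 sperm development members beside 25 testis markers that were no members (left), and of 7 neural members beside 9 nervous system markers that were no members (right). Testis markers and members were highest in RasV12 2 and next in RasV12 3, while neural members and the mean of the markers on this log scale were highest in RasV12 1.

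Neural, adhesion and guidance genes were a group of 7, all of them highest in RasV12 1. miple, a heparin-binding growth factor of the midkine family, was at 0.64, 0.24 and 0.48 in controls and 12.0, 1.36 and 1.53 in RasV12. Appl, the fly homologue of the amyloid precursor protein, was at 0, 0.05 and 0.08 in controls and 6.14, 0.23 and 0.66 in RasV12. The neuronal RNA-binding gene fne was at 5.78 in RasV12 1 and at 0.08 and 0.21 in the other RasV12 libraries, against 0, 0.05 and 0. otk, a receptor-like protein of axon guidance and Wnt signalling, was at 0.59, 0.27 and 0.72 in controls and 4.15, 1.70 and 1.03 in RasV12. tau, dpr7 and msi completed the group. Only 1 of the 7 genes met the rule without RasV12 1.

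Nervous system markers were mixed, with a median log2 difference of 0.10 over the 5 that were tested. elav, the pan-neuronal marker, was at 0.46, 0.81 and 0.83 in controls and 5.87, 1.37 and 0.51 in RasV12. The synaptobrevin gene n-syb was at 0.17, 0 and 0 in controls and 3.55, 0.18 and 0.57 in RasV12. Over the 9 markers that were no members the mean log2(scaled FPKM + 1) was 1.43, 1.55 and 1.41 in control libraries and 2.18, 1.48 and 1.61 in RasV12, and 3, 4 and 4 were listed at 0 in controls against 0, 2 and 0 in RasV12. Their summed scaled FPKM, most of it from abundant Syt1, came to 134, 142 and 161 in controls and to 162, 128 and 152 in RasV12, so that RasV12 1 was level with control 3. The part of neural tissue in the level of this group was not tested. In a list of cell adhesion and guidance genes 6 of 25 tested had all RasV12 libraries above and 0 had all below, beside 7.67% and 7.08% of all genes tested, with a median log2 difference of 0.57. One of them was Dg, the matrix receptor dystroglycan, at 5.29, 4.94 and 5.93 in controls and 12.0, 12.3 and 9.03 in RasV12, a log2 difference of 0.91 that kept it out of the members.

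Small non-coding RNAs and Hsp67Bb rested on few fragments. snoRNA:Psi28S-3571 had the largest log2 difference of all members, 5.23, with 0 in all controls and 36.4, 56.1 and 23.9 in RasV12, but these values rested on 1, 3 and 1 fragments and its locus lies within the much more abundant gene exba. The 3 genes for the spliceosomal U2 RNA at 34AB rested on at most 20 fragments and share nearly all of their sequence. Hsp67Bb, named CG4456 in newer annotation, was listed at 0 in controls and was at 2.74, 3.78 and 1.46 in RasV12 on 1 or 2 fragments. Its whole locus of 719 bases overlaps Hsp22, which had a mean of 21.7 in controls and 12.05 in RasV12. Cufflinks did not give all values of Hsp67Bb an OK status. Over a list of 21 tested heat-shock and chaperone genes the median log2 difference was 0.02.

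The 72 genes outside the functional groups held 11 of the 28 members with separated bounds. Of these 11, TM4SF, CG14100 and CG8478 were listed at 0 in all controls. Obp44a, of the odorant-binding protein family, was at 0, 13.6 and 0 in controls and 238, 23.4 and 60.1 in RasV12, the highest RasV12 mean of these 72 with 107 scaled FPKM. hebe was at 1.84, 4.91 and 5.70 in controls and 24.1, 15.9 and 23.7 in RasV12, with a ratio of means of 5.12. TM4SF, a tetraspanin, was listed at 0 in all controls and was at 4.46, 2.48 and 15.4 in RasV12. CG17919, of the phosphatidylethanolamine-binding protein family, was at 0, 0 and 7.999 in controls and 15.4, 33.7 and 14.2 in RasV12. The locus of TM4SF overlaps the more abundant CG4882 by 44 bases, and that of CG17919 overlaps the more abundant snRNP2 by 88. The locus of Obp44a overlaps Pabp2 by 10 bases, and its control 2 value rested on 43 fragments. CG31226 and CG5697, which have no named function, reached 83.7 and 63.6 in RasV12 2 and 0.85 to 6.94 in the other RasV12 libraries. Of these 72 genes, 40 met the rule without RasV12 2, 61 without RasV12 1 and 63 without RasV12 3. RasV12 2 was the highest library for 38 of them. In 34 no control was on more than 3 fragments, and 24 were on at most 3 fragments in RasV12 1. Atg8b, for example, was at 0 in all controls and at 0.50, 4.33 and 0.66 in RasV12.

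The positions of the members in the genome were not used by the rule. On 2R lay 46 members (30.3%), against 20.5% of the other genes tested, and on X lay 12 (7.89%) against 16.5%. Within 10 kb of another member lay 22 genes (14.5%), in 9 neighbourhoods, whereas 4.97% of the other genes tested had a member at that distance. The 9 neighbourhoods were the Bomanin, peroxiredoxin, aldo-keto reductase, cathepsin, Arc and U2 groups above, together with CG4398, CG7848 and CG4409 on 2R, CG15152 and CG5758 on 2L, and Yp2 and CG15312 on X. Members had a median locus length of 1451 bases, against 2435 for the other genes tested, and 46 (30.3%) overlapped another gene against 37.5%. A gene of higher mean FPKM overlapped 19 members (12.5%), against 13.2% of the other genes tested.

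Some of the lists examined held no members. In a list of JNK and wound response genes 2 of 12 tested had all RasV12 libraries above and 1 had all below, and puc, the feedback phosphatase of JNK, was at 9.27, 8.95 and 13.6 in controls and 9.49, 10.2 and 8.88 in RasV12. In a cell division and centrosome list, which does not contain the member Nnf1a, 2 of 12 tested had all RasV12 libraries above, among them CycA at 2.15, 1.00 and 2.16 in controls and 5.38, 4.27 and 2.36 in RasV12, with a median log2 difference of 0.61. Among listed ecdysone response genes 1 of 19 tested had all RasV12 libraries above. Marker lists of larval midgut, muscle, salivary gland, imaginal disc, larval cuticle and Malpighian tubule held 0 members as well.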

How the data were processed

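Paired reads of fat body RNA were aligned by the authors with TopHat. After removal of duplicates they made FPKM with confidence bounds in Cufflinks, using the BDGP5 annotation, and these FPKM were deposited. Coordinates are those of the deposited tables, counted from 1, and a newer RefSeq and Ensembl annotation was used only for names and biotypes. The fragments behind a value were estimated from its bounds, and values on 3 or fewer were treated as at the floor. The members, the gene lists and the functional groups were chosen with earlier results of these data known. The 7575 genes at or above the FPKM minimum of 1 were tested with limma 3.58.1 (lmFit, eBayes with trend, two-sided) on log2(scaled FPKM + 1), with a pseudocount of 1 and Benjamini-Hochberg adjustment over all of them, and the test was tested on simulated data. A locus start was taken as counted from 0 in the tables. The table labelled as both runs of control 3 merged equals 0.77 times run 3A for 94.3% of 6869 genes and served only as an alternative, as did run 3B.

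Names were drawn from members in the function lists, the 15 with the largest difference, the 10 with the highest RasV12 level, the 5 on each side of every threshold and the 15 whose bounds lay furthest apart by ratio, which cannot rank members listed at 0 in all controls. Some of these genes are counted without being named. Other members, and genes of the lists, were named after their values were seen, to describe the groups. Alternatives changed the pseudocount, the filter, the scaling, the table for control 3, the test, the thresholds and the libraries. The authors' Cuffdiff comparison was not used.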

Additional observations from a re-analysis of the deposited data

How the results depend on the processing

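Of 152 members, 51 were kept with 5 added before the logarithm in place of 1, 67 with a mean FPKM of at least 5 and 33 with a difference over 2. A difference over 0.5 gave 323 genes and dropping the separation of the groups gave 415, which include all 152. Leaving out 1 library gave 125 to 342 members, the lowest without RasV12 2 and the highest without RasV12 3. Without scaling the median of all genes tested moved to 0.20 and 215 genes met the rule. With run 3B for control 3 it was 170 genes, 122 of them among the 152.

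limma called 8 genes, and 5 with 5 added before the logarithm, 5 with run 3B and 5 to 61 with 1 library left out, the most without RasV12 3, where 20 members were called, and 13 without control 3. The labels do not say whether a replicate number marks a shared batch. Deviations of libraries of the same number had correlations of 0.09, -0.17 and -0.15 across genes. With 3 libraries per group these correlations cannot decide whether the numbers pair the libraries. With the replicate number as a block 3 genes were called. The direction of a member's difference was largely fixed by the rule and is no sign of stability. Depth limits 45 members, whose lowest RasV12 value rested on 3 or fewer fragments.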
